A study of Mus musculus with 6 samples.

Results

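The genes described here carry glucose into the cell, break it down to pyruvate and lactate, admit pyruvate to the mitochondrion or make glucose anew. Members were chosen by symbol, as 40 genes of glycolysis, glucose uptake and gluconeogenesis. Of the 40, 38 had a row among the 25206 rows of the array data, and Eno1 and Gapdh were not analysed here. Expression was measured in whole kidneys of male C57BL/6 mice at 3 months of age, 3 Vhl knockout and 3 wild-type, on Mouse Gene 2.0 ST arrays. The Vhl knockout mice carried the floxed Vhl allele with Hoxb7-Cre-GFP, and the wild-type mice carried that allele too, their labels naming no Cre. Should they have lacked it, loss of Vhl and the Cre transgene cannot be told apart. For its primary tubule cells, the paper lists the wild-type mice as Hoxb7-Cre-GFP/+, with no floxed allele named. It does not state the genotype of the array controls. The Hoxb7 promoter acts in the collecting duct lineage, and the labels speak of a knockout in sub-populations of tubule cells, so the extracts also held RNA of cells that kept Vhl. In such extracts more RNA per cell and more cells of a type cannot be told apart. No label states that each array came from a separate mouse, so p-values measure the spread between these arrays.

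In glycolysis, hexokinases trap glucose as glucose 6-phosphate, phosphofructokinase commits it to breakdown, and the later enzymes yield ATP and pyruvate. Pyruvate is reduced to lactate and exported, or oxidised by pyruvate dehydrogenase, which the pyruvate dehydrogenase kinases switch off. The proximal tubule makes glucose by gluconeogenesis and uses little of it, whereas more distal segments, the collecting duct included, rely more on glycolysis. The VHL protein marks the α subunits of the hypoxia-inducible factors (HIF) for destruction when oxygen is present, and many genes of glycolysis are known HIF targets. The comparison asks how these genes stood in kidneys with a knockout of Vhl.

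The signal of Vhl itself was 6.08, 6.18 and 6.10 in Vhl knockout kidneys, against 6.11, 6.13 and 6.03 in wild-type kidneys (limma adjusted p = 0.86). The exons its row reads are not stated, and it is therefore no check of the labels. All 10 proximal tubule, 10 collecting duct, 8 loop and distal tubule and 5 podocyte markers lay above the array median on all 6 arrays. Vhl knockout replicates 1 and 3 stood apart from the other 4 arrays in adipocyte markers. Macrophage markers were higher on all 3 Vhl knockout arrays.

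In Vhl knockout kidneys, 4 of the 38 measured genes rose and 0 fell (limma, adjusted p under 0.05 over all rows). With the mean of adipocyte markers as a covariate 1 rose, Slc16a3, while the count of all rows that were higher went from 565 to 95. The 4 genes were Slc16a3, which encodes the lactate exporter MCT4, Hk2, an inducible hexokinase, and Pfkp and Pfkl, the platelet and liver forms of phosphofructokinase. Their levels were 2.25, 2.01, 1.98 and 1.44 times those in wild-type kidneys. They were 10.5% of the measured members, against 2.24% of all rows higher in Vhl knockout kidneys. Against the 0 members that were lower stood 0.524% of all rows. The members were chosen with earlier results of these data known, so these shares are no independent test. The median log2 fold change was 0.05 over the 38 genes and -0.03 over all rows, and the members ran between -0.50 and 1.17, with 23 positive and 15 negative. By role, the median ran between -0.15 in gluconeogenesis and 0.24 in upper glycolysis. The genes that passed lay at 3 steps, the trapping of glucose, the phosphofructokinase reaction and the export of lactate. On the same arrays 7 of 9 macrophage markers rose and 4 of 10 collecting duct markers fell, and their part in these differences was not tested.

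**Figure D1:**
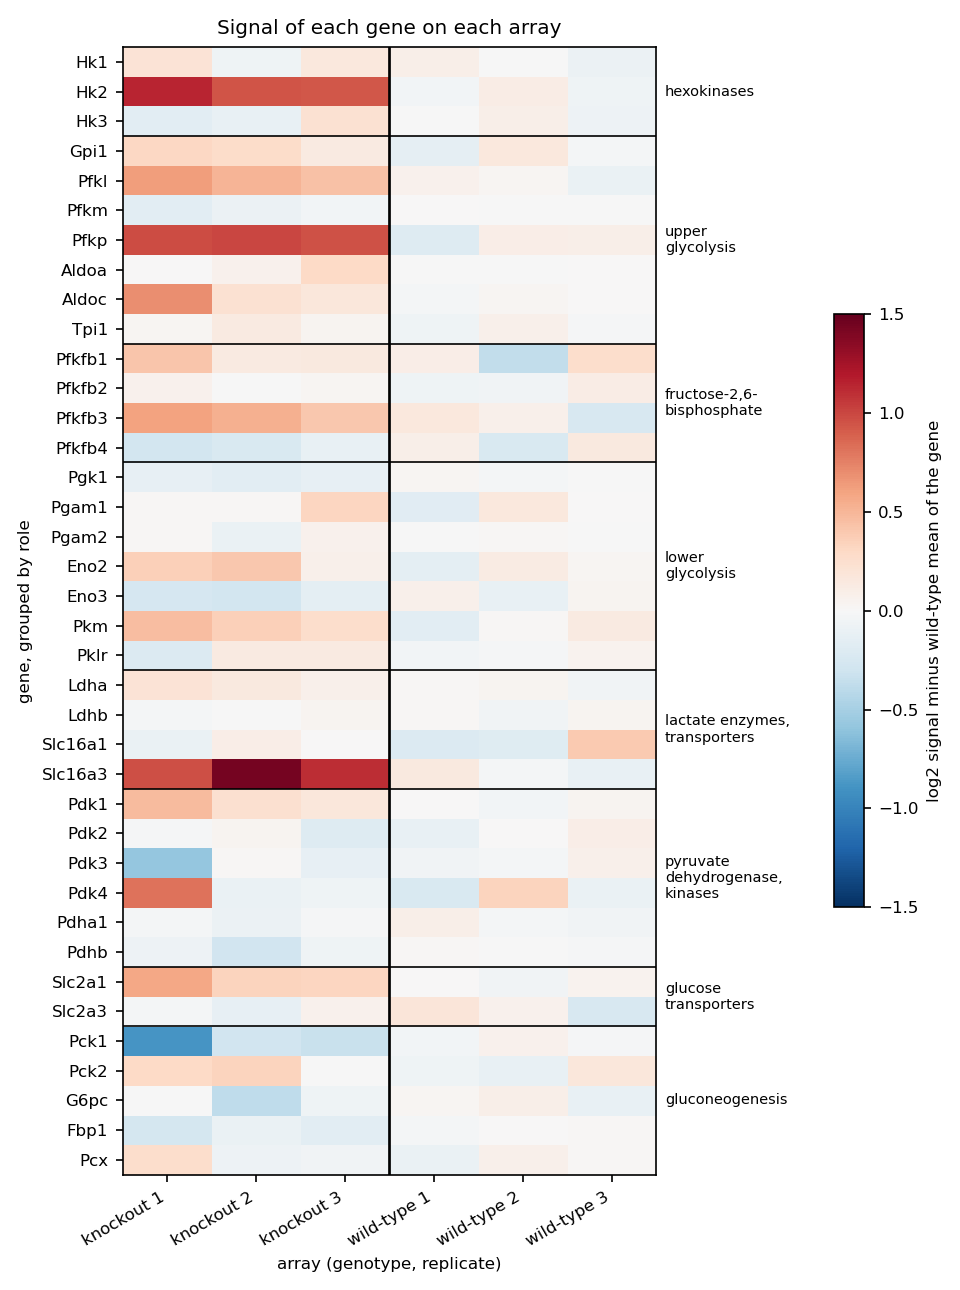
Log2 signal of the 38 measured genes (rows, grouped by role) on the 3 Vhl knockout and 3 wild-type arrays (columns), as the difference from the wild-type mean of the gene, with red above and blue below it. Hk2, Pfkp and Slc16a3 are red on all 3 Vhl knockout arrays, while most rows stay pale on all 6 arrays.

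HIF binds DNA at a short core, ACGTG or GCGTG. The 250 bases upstream of each RefSeq start site (GRCm38.p6) were searched for either core on both strands, counting CACGTG on each strand. The promoters of the 4 genes that rose are printed 5′ to 3′ to show where these letters stood, with that of Slc16a1, encoding the monocarboxylate transporter MCT1, set beside its relative Slc16a3 because it did not pass the test. Capitals mark the matches.
Hk2, chr6:82774455-82774704, minus strand: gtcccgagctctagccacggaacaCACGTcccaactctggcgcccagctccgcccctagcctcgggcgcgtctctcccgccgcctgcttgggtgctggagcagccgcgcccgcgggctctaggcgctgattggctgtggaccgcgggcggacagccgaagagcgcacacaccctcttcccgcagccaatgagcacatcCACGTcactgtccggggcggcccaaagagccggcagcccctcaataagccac
Pfkp, chr13:6648772-6649021, minus strand: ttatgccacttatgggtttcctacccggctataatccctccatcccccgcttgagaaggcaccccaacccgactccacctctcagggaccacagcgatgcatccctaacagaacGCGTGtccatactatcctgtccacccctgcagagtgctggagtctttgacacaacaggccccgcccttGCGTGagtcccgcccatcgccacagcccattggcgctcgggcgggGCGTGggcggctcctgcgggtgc
Pfkl, chr10:78009808-78010057, minus strand: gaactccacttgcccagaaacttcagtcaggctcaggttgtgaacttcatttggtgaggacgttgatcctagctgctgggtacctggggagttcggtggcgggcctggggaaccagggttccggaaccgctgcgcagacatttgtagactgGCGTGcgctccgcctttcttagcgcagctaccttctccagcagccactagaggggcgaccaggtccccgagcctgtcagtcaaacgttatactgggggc
Slc16a3, chr11:120948817-120949066, plus strand: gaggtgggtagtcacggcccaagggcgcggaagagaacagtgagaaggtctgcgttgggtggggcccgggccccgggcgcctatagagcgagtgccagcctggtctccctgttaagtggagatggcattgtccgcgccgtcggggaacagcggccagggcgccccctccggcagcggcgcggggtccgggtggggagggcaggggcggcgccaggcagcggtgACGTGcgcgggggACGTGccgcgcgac
Slc16a1, chr3:104638414-104638663, plus strand: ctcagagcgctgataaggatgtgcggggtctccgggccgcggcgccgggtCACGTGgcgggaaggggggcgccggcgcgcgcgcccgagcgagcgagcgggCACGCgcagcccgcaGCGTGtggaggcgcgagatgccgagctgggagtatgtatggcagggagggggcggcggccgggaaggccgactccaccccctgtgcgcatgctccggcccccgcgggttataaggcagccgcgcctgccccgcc

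The Hk2 window held CACGT, the reverse complement of ACGTG, beginning 226 and 52 bases upstream of the start. Pfkp held GCGTG beginning 136, 68 and 23 bases upstream, and Pfkl held it once, at 99 bases. Slc16a3 held ACGTG at 27 and 14 bases upstream, close to its start. Slc16a1 held 4 matches, of which CACGT at 200 and ACGTG at 199 bases overlapped, with CACGC at 149 and GCGTG at 134. All 4 genes that rose thus had a match, as did 78.4% of the members with a promoter and 48.1% of all genes with a row and a promoter. Promoters were found for 37 of the 38 genes (all but Slc2a3), with 56 windows, and 37 of these windows (66.1%) held a match. Among all 32851 promoters of the same length 38.6% did, and among the promoters of genes with a row 44.9%. The letters are rich in G and C, and the median GC content was 66.2% in the windows of the 4 genes, 58.2% in those of all members and 56.0% in those of genes with a row. Ldha, which did not pass, held 5 matches in 1 window, and Pgk1 and Slc2a1 held 2 each. A match shows that the letters are present, and binding was not measured.

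Hexokinases catalyse the first step. Hk2 had log2 signals of 5.92, 5.72 and 5.70 in Vhl knockout kidneys, against 4.73, 4.88 and 4.70 in wild-type kidneys. All 3 Vhl knockout arrays lay above all 3 wild-type arrays, with a gap of 0.82 between the nearest of them. The 3 wild-type values lay below the array median. The mean was 5.78 ± 0.12 in Vhl knockout and 4.77 ± 0.10 in wild-type kidneys (SD, n = 3 each), a log2 fold change of 1.01 (95% interval 0.79 to 1.22, limma adjusted p = 0.0037) that ranked 165 among all rows. Hk1, the form found in most tissues, had 8.38, 8.11 and 8.33 in Vhl knockout kidneys, against 8.26, 8.16 and 8.09 in wild-type kidneys. The genotypes overlapped, and the interval of the difference ran between -0.13 and 0.33, below that of Hk2. Hk3, known from white blood cells, had a log2 fold change of -0.01 (95% interval -0.28 to 0.26), and its row lay below the array median on all 6 arrays.

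In upper glycolysis, 2 of the 7 genes rose, both encoding phosphofructokinase, which adds the second phosphate. Pfkp had 8.67, 8.69 and 8.64 in Vhl knockout kidneys, against 7.49, 7.78 and 7.77 in wild-type kidneys. The Vhl knockout arrays were nearly level with each other and 0.86 above the highest wild-type array. The log2 fold change was 0.98 (95% interval 0.76 to 1.21, limma adjusted p = 0.0042). Pfkl had 7.42, 7.30 and 7.23 in Vhl knockout kidneys, against 6.86, 6.83 and 6.69 in wild-type kidneys. Here too the genotypes did not overlap, but the gap was smaller, 0.37. The log2 fold change of Pfkl was 0.52 (95% interval 0.32 to 0.72, limma adjusted p = 0.0253). This call did not hold when any 1 of the 6 arrays was left out, with adjusted p between 0.0554 and 0.0889 and log2 fold changes between 0.47 and 0.57. Hk2, Pfkp and Slc16a3 passed with each array left out, but Hk2 and Pfkp did not pass with the mean of adipocyte markers as a covariate (adjusted p = 0.0514 and 0.0515).

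The muscle form of phosphofructokinase, Pfkm, stood apart from these. It had 5.96, 6.04 and 6.08 in Vhl knockout kidneys, against 6.13, 6.12 and 6.12 in wild-type kidneys. Its Vhl knockout values all lay below the wild-type ones, by a small margin, and the log2 fold change of -0.10 did not pass (95% interval -0.26 to 0.07, limma adjusted p = 0.542). Aldoc, an aldolase best known from brain, had 7.23, 6.77 and 6.71 in Vhl knockout kidneys, against 6.51, 6.56 and 6.54 in wild-type kidneys. The genotypes did not overlap, Vhl knockout replicate 1 was the highest, and the difference of 0.36 did not pass (limma adjusted p = 0.246). Without that replicate it was 0.20. The other 3 genes of this group were Gpi1, which converts glucose 6-phosphate to fructose 6-phosphate, Tpi1, which interconverts the triose phosphates, and Aldoa, the muscle aldolase. Their genotypes overlapped, with log2 fold changes of 0.24, 0.07 and 0.12. Aldoa lay below the array median on all 6 arrays.

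**Figure D2:**
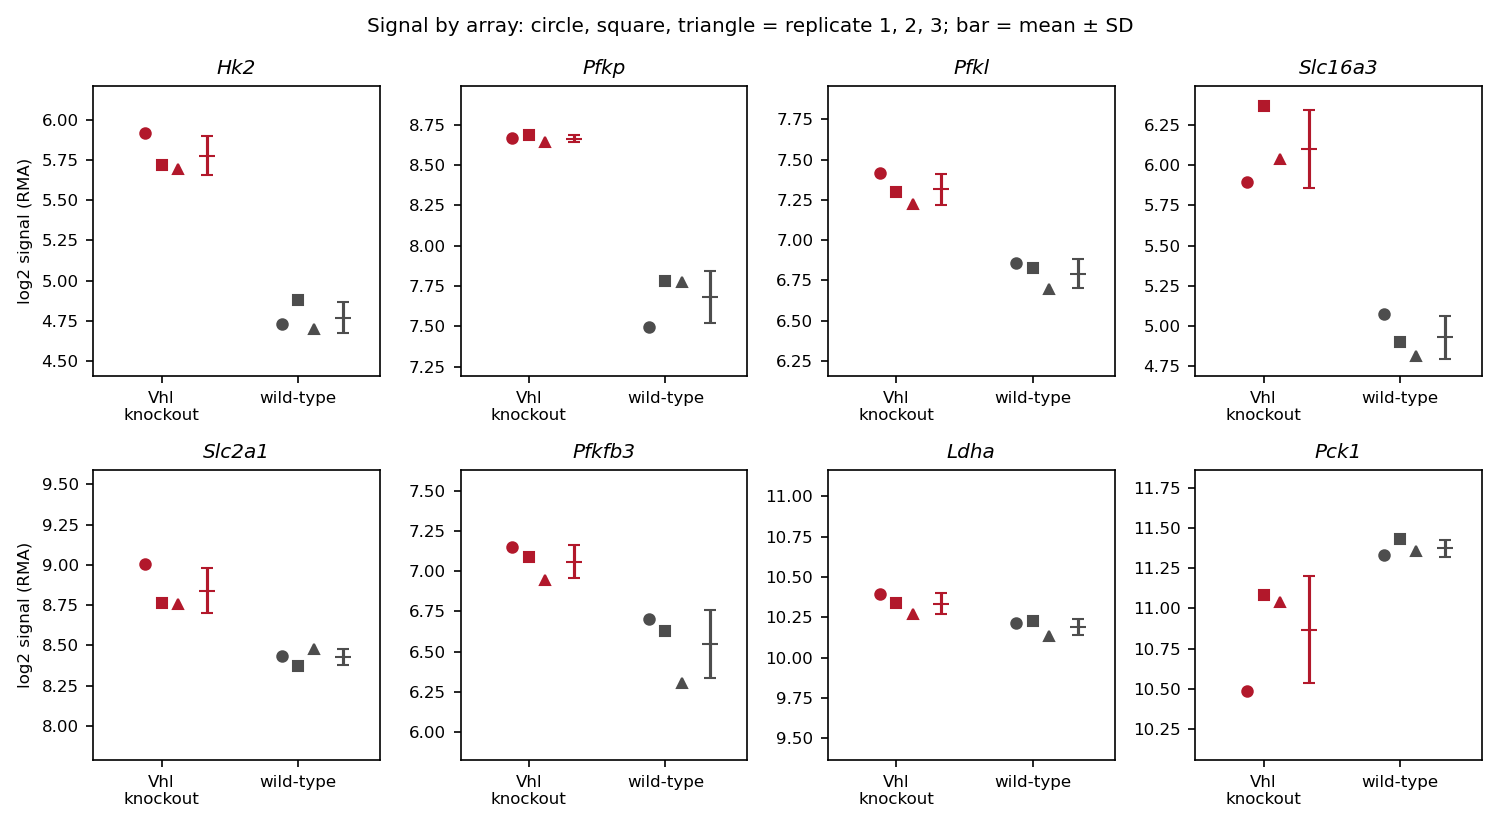
Log2 signal (RMA) of 8 genes on each array, with Vhl knockout left of wild-type, replicates 1, 2 and 3 as circle, square and triangle, and bars giving mean ± SD (n = 3). All panels span the same range of log2 units, so that the gap of 0.86 for Pfkp can be set against the small separation of Ldha.

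No gene of the enzymes that make and remove fructose 2,6-bisphosphate, the activator of phosphofructokinase, passed the test. Pfkfb3, the form with the strongest kinase activity, came nearest. It had 7.15, 7.09 and 6.95 in Vhl knockout kidneys, against 6.71, 6.63 and 6.31 in wild-type kidneys. The genotypes did not overlap and the log2 fold change was 0.51 (95% interval 0.23 to 0.79, limma adjusted p = 0.0773), much like that of Pfkl in size but with a wider spread in wild-type kidneys. It passed once dim rows were left out (adjusted p = 0.035) and with a variance trend and robust estimation (adjusted p = 0.035). Pfkfb1, the liver form, Pfkfb2, the heart form, and Pfkfb4, first described in testis, had log2 fold changes of 0.24, 0.03 and -0.21 with overlapping genotypes.

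In lower glycolysis, which turns triose phosphates into pyruvate, 0 of the 7 measured genes passed. Pkm, the pyruvate kinase gene of most tissues, had 8.45, 8.35 and 8.26 in Vhl knockout kidneys, against 7.84, 8.01 and 8.13 in wild-type kidneys. Its genotypes did not overlap, and the log2 fold change was 0.36 (95% interval 0.13 to 0.59, limma adjusted p = 0.123). The row cannot show which splice form of Pkm was present. Pklr, the pyruvate kinase gene of liver and red blood cells, which is also expressed in kidney, had a log2 fold change of 0.02 (95% interval -0.23 to 0.27). Pgk1, encoding phosphoglycerate kinase, had 5.09, 5.06 and 5.09 in Vhl knockout kidneys, against 5.24, 5.18 and 5.21 in wild-type kidneys. All Vhl knockout values lay below the wild-type values, and the log2 fold change was -0.13 (95% interval -0.29 to 0.03, limma adjusted p = 0.374). A rise of more than 1.02 times in the signal of this row lay outside the interval. The row stood only a little above the array median on each array, which limits what this bound says of the transcript.

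Enolases catalyse the step before pyruvate kinase. Eno3, the muscle enolase, had 5.86, 5.84 and 5.96 in Vhl knockout kidneys, against 6.18, 6.00 and 6.15 in wild-type kidneys. The genotypes did not overlap, and the log2 fold change of -0.23 did not pass (limma adjusted p = 0.225). Eno2, the neuronal enolase, had a log2 fold change of 0.27 (limma adjusted p = 0.284) from a row below the array median on all 6 arrays. The phosphoglycerate mutases Pgam1 and Pgam2 had 0.12 and -0.01 with overlapping genotypes. Near-identical copies exist for several glycolytic genes, Aldoa, Tpi1, Pgk1, Pgam1 and Ldha among them, and how the rows handle probes shared with such copies was not given in the sources used here, which leaves these values uncertain.

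Lactate dehydrogenase and the monocarboxylate transporters handle the end product. Slc16a3 showed the largest log2 fold change of the 38 genes, and ranked 109 among all rows. It had 5.90, 6.37 and 6.04 in Vhl knockout kidneys, against 5.08, 4.90 and 4.82 in wild-type kidneys. The genotypes were 0.82 apart at their nearest arrays, and Vhl knockout replicate 2 was the highest. Wild-type replicates 2 and 3 lay below the array median. The mean was 6.10 ± 0.24 in Vhl knockout and 4.93 ± 0.13 in wild-type kidneys (SD, n = 3 each), a log2 fold change of 1.17 (95% interval 0.85 to 1.49, limma adjusted p = 0.0076). Slc16a1 had 7.38, 7.57 and 7.49 in Vhl knockout kidneys, against 7.28, 7.29 and 7.87 in wild-type kidneys. The genotypes overlapped because wild-type replicate 3 was the highest of all, and the interval was wide, between -0.38 and 0.39.

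Ldha, whose product favours lactate formation, had 10.40, 10.34 and 10.27 in Vhl knockout kidneys, against 10.21, 10.23 and 10.13 in wild-type kidneys. The genotypes did not overlap but lay close together. The log2 fold change was 0.14 (95% interval -0.03 to 0.32, limma adjusted p = 0.378). A rise of more than 1.25 times in the whole-kidney signal lay outside the interval. The extracts also held RNA of cells that kept Vhl, so this is no bound for the knockout cells. Ldhb, whose product favours pyruvate formation, had a log2 fold change of -0.00 (95% interval -0.17 to 0.16).

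**Figure D3:**
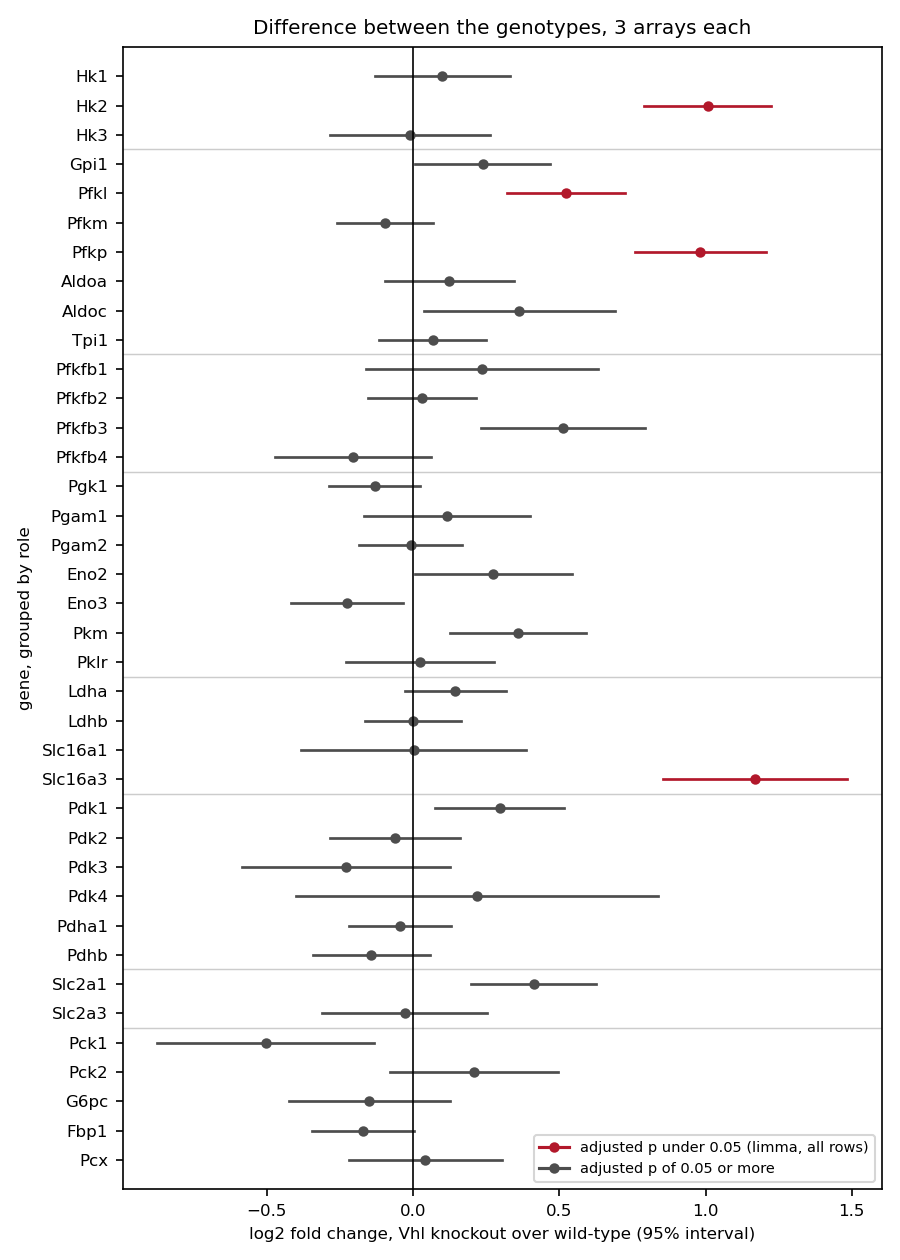
Log2 fold change of Vhl knockout over wild-type kidneys (points) with its 95% interval (lines) for the 38 genes, grouped by role, 3 arrays per genotype. The 4 genes in red passed the test, and the intervals of Hk2, Pfkp and Slc16a3 lie to the right of those of Hk1, Pfkm and Slc16a1.

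Within 3 gene families the forms thus differed in call, and the difference itself was taken on each array. These pairs were chosen after their values were seen. The log2 fold change of Hk2 exceeded that of Hk1 by 0.91 and that of Hk3 by 1.02. Among the phosphofructokinases, Pfkp exceeded Pfkm by 1.08 and Pfkl exceeded Pfkm by 0.62. Slc16a3 exceeded Slc16a1 by 1.17. For each of the 5 pairs the Vhl knockout and wild-type arrays did not overlap. The exact two-sided permutation test gave p = 0.1 each time, also after Benjamini-Hochberg adjustment, which is the smallest value that 3 arrays against 3 allow.

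At the entry of pyruvate into the mitochondrion, 0 of 6 genes passed. Pdk1, a kinase that inhibits pyruvate dehydrogenase, had 7.62, 7.39 and 7.33 in Vhl knockout kidneys, against 7.15, 7.11 and 7.19 in wild-type kidneys. The genotypes did not overlap, and the log2 fold change was 0.30 (95% interval 0.08 to 0.52, limma adjusted p = 0.174). Pdk4, the form raised by fasting, had 8.12, 7.20 and 7.24 in Vhl knockout kidneys, against 7.07, 7.64 and 7.20 in wild-type kidneys. Replicate 1 alone was high among the Vhl knockout arrays, and the log2 fold change was -0.08 without it and 0.22 with it. Pdk2 and Pdk3 had -0.06 and -0.23 with overlapping genotypes, and the value of Pdk3 was -0.05 without Vhl knockout replicate 1. Pdha1 and Pdhb, the subunits of the E1 component of the complex, had -0.05 and -0.14, and those of Pdhb did not overlap between genotypes.

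Slc2a1 encodes GLUT1, a glucose transporter found in most tissues and in the distal nephron. It had 9.00, 8.76 and 8.76 in Vhl knockout kidneys, against 8.44, 8.37 and 8.48 in wild-type kidneys. The genotypes did not overlap, yet the log2 fold change of 0.41 (95% interval 0.20 to 0.63) stayed short of the threshold, with a limma adjusted p of 0.0677. As with Pfkfb3, it passed once dim rows were left out (adjusted p = 0.0259) and with the variance trend and robust estimation (adjusted p = 0.0184). Slc2a3, encoding the neuronal transporter GLUT3, lay below the array median on all 6 arrays and had a log2 fold change of -0.03.

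Of the 5 genes of gluconeogenesis, 0 passed, and their median log2 fold change was -0.15. Pck1, the cytosolic phosphoenolpyruvate carboxykinase that limits the rate of the pathway, had the largest negative difference of the 38 genes. It had 10.49, 11.08 and 11.04 in Vhl knockout kidneys, against 11.33, 11.43 and 11.36 in wild-type kidneys. All Vhl knockout arrays lay below the wild-type arrays, with replicate 1 the lowest. The log2 fold change of -0.50 did not pass (95% interval -0.88 to -0.13, limma adjusted p = 0.17), and without Vhl knockout replicate 1 it was -0.31 (adjusted p = 0.148). Fbp1, which removes a phosphate from fructose 1,6-bisphosphate, had 10.70, 10.86 and 10.81 in Vhl knockout kidneys, against 10.93, 10.97 and 10.98 in wild-type kidneys. These did not overlap either, and the log2 fold change of -0.17 did not pass (limma adjusted p = 0.303). G6pc, which releases free glucose, Pck2, the mitochondrial carboxykinase, and Pcx, pyruvate carboxylase, had -0.15, 0.21 and 0.04 with overlapping genotypes. The value of G6pc was -0.04 without Vhl knockout replicate 2.

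Weaker criteria were also counted. At an unadjusted p under 0.05, 11 members (28.9%) were higher, against 8.67% of all rows, and 2 members (5.26%), Eno3 and Pck1, were lower, against 8.38% of all rows. Vhl knockout arrays lay wholly above wild-type arrays for 10 members (26.3%), against 11.2% of all rows. They lay wholly below them for 6 members (15.8%), against 12.7% of all rows, a share near that background. All rows included a larger share of dim rows than the members, so these shares do not compare rows of like brightness.

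Other genes of glucose metabolism were taken from 7 lists, which named 82 genes, of which 81 had a row. None of the 81 passed by limma at an adjusted p under 0.05, against 2.24% of all rows higher and 0.524% lower. At an unadjusted p under 0.05, 9 were higher and 10 lower, against 8.67% and 8.38% of all rows, and the median log2 fold change of the 81 was -0.04. Among other genes of glucose uptake, Slc5a1, the sodium-glucose cotransporter SGLT1 of the late proximal tubule, had 8.03, 7.60 and 7.99 in Vhl knockout kidneys, against 7.34, 7.58 and 7.22 in wild-type kidneys. The genotypes were separated by a gap of only 0.02, and the difference of 0.49 did not pass (limma adjusted p = 0.146). Txnip, an inhibitor of glucose uptake, had a log2 fold change of -0.31 (limma adjusted p = 0.193) with no overlap.

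In the glycogen list, Pgm2, a phosphoglucomutase, came nearest to the threshold with a log2 fold change of 0.32 (limma adjusted p = 0.0977). It passed once dim rows were left out (adjusted p = 0.0369) and with the variance trend and robust estimation (adjusted p = 0.0493). Pygl, the liver glycogen phosphorylase, had 0.38. G6pdx, the entry enzyme of the pentose phosphate pathway, had 0.39, and Pgls, which acts next, had -0.23. Khk and Tkfc, enzymes of fructose breakdown, had -0.32 and -0.26, with Vhl knockout values wholly below wild-type values for both. Without Vhl knockout replicate 1 they had -0.18 and -0.15. Emb, an ancillary protein of monocarboxylate transporters, had 0.31 and the transporter family member Slc16a4 had -0.30. Gpt, an alanine transaminase, had -0.29, and the testis forms Pgk2 and Gapdhs had -0.22 and -0.19 from rows below the array median on all 6 arrays. Fbp2, the muscle fructose bisphosphatase, had 7.28, 6.27 and 6.05 in Vhl knockout kidneys, against 6.09, 6.15 and 6.10 in wild-type kidneys. Replicate 1 alone stood out among the Vhl knockout arrays, and the log2 fold change was 0.05 without it and 0.42 with it.

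**Figure D4:**
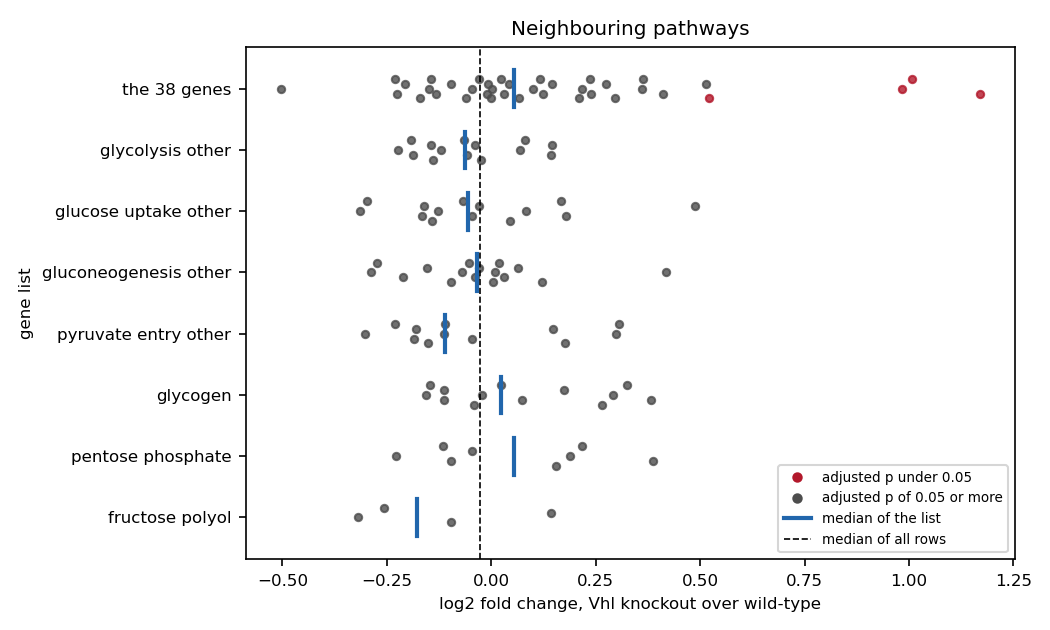
Log2 fold change of Vhl knockout over wild-type kidneys for each of the 38 genes and of the 81 genes in 7 neighbouring lists (points), with the median of each list (bar) and of all rows (dashed line, -0.03). The 4 points in red passed the test and all belong to the 38 genes.

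Markers of other cells moved with the genotype. Of 9 measured macrophage markers, 7 rose, and the mean log2 signal of the 9 was 7.14 to 7.24 in Vhl knockout and 5.89 to 6.16 in wild-type kidneys. On the 3 Vhl knockout arrays this mean lay 1.20, 1.10 and 1.10 above the wild-type mean. Macrophages also express glycolytic genes, Hk2, Pfkp, Slc16a3 and Slc2a1 among them. Hk3, known from white blood cells, had a log2 fold change of -0.01, from a row below the array median on all 6 arrays. Of 10 collecting duct markers, 4 fell (Aqp3, Aqp4, Hsd11b2 and Fxyd4). The 6 that did not pass had log2 fold changes between -0.09 (Aqp2) and 0.17 (Scnn1g). The mean of all 10 was 7.37 to 7.44 in Vhl knockout and 7.71 to 7.77 in wild-type kidneys. Of 10 proximal tubule markers 0 passed, and their mean was 11.1 to 11.2 in Vhl knockout and 11.2 in wild-type kidneys. The part of macrophages and of the collecting duct cells in the differences of the 4 genes was not tested.

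Adipocyte markers differed between arrays of 1 genotype. None of the 7 passed, but their mean was 7.38, 4.83 and 6.45 on the Vhl knockout arrays, against 4.57 to 5.04 in wild-type kidneys. Vhl knockout replicate 1, the highest in these markers, was also the array with the high Pdk4 and Fbp2 and the low Pck1. Replicate 3, the next highest in them, had Pdk4, Fbp2 and Pck1 at 7.24, 6.05 and 11.04, beside 7.20, 6.27 and 11.08 on replicate 2. Vhl knockout replicate 2 had an adipocyte mean within the wild-type range, and on it Hk2, Pfkp, Pfkl and Slc16a3 all lay above every wild-type array. With the adipocyte mean as a covariate, 95 of all rows were higher in place of 565, and 1 member passed in place of 4. It was Slc16a3, with a log2 fold change of 1.40 (limma adjusted p = 0.0348). Hk2 then had 0.91 (limma adjusted p = 0.0514), Pfkp had 1.02 (adjusted p = 0.0515) and Pfkl had 0.46 (adjusted p = 0.215). The adipocyte mean was itself high on Vhl knockout replicates 1 and 3 alone, so this fit cannot fully separate it from genotype. Beyond this fit, the part of adipocytes in the differences of these genes was not tested. Of 8 skeletal muscle and 5 red blood cell markers with a row, 0 passed.

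**Figure D5:**
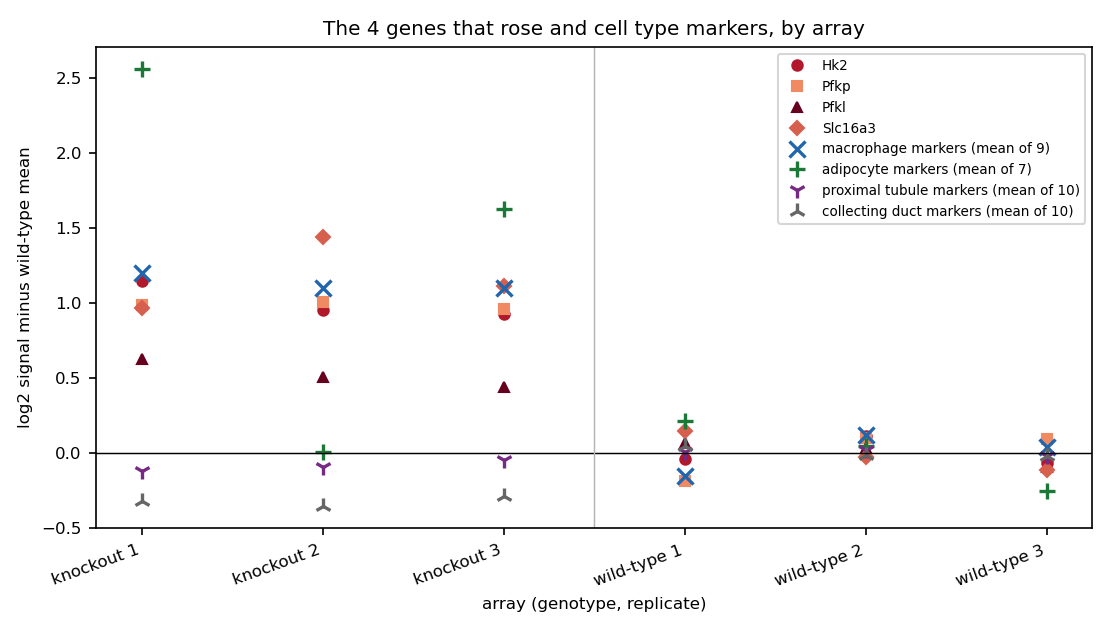
Log2 signal of Hk2, Pfkp, Pfkl and Slc16a3 and the mean of 4 marker lists on each array, as the difference from the wild-type mean. The macrophage mean is 1.10 to 1.20 on all 3 Vhl knockout arrays, as high as Hk2 and Pfkp, while the adipocyte mean is 2.56 and 1.62 on replicates 1 and 3 and 0.01 on replicate 2.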

How the data were processed

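Total RNA of 6 whole kidneys, 3 Vhl knockout and 3 wild-type, was measured on Mouse Gene 2.0 ST arrays, and groups and replicate numbers were taken from the sample labels. The values are log2 signals that the authors deposited after RMA, a method that subtracts background, brings arrays to a common distribution and summarizes probes, 1 value for each of 25206 Entrez Gene rows. For this step the software, its version and the genome build were not given in the sources used here. A statistic, a p-value and a q-value of the authors' own comparison were also deposited and were not used. Symbols were assigned by Entrez ID to 23740 rows through the platform annotation and a RefSeq table (GRCm38.p6), 555 of them, Gpi1 and Pfkfb1 included, through RefSeq alone, and 1466 rows had none. A gene has 1 row.

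A linear model with genotype alone was fitted to all rows (R 4.3.3, limma 3.58.1, functions lmFit and eBayes, 3.27 prior degrees of freedom). The p-values of all rows were adjusted together by the Benjamini-Hochberg method, and 0.05 was the threshold. Intervals are 95% intervals of the moderated statistic. The paper names no test for the arrays. Python 3.11.15 with scipy 1.17.1 and pandas 2.3.3 was used for the tables. Array medians lay between 5.02 and 5.05. No read depth exists for arrays, and precision is limited by their number. On simulated data of 25206 rows the fit of Vhl knockout against wild-type found 42% of 50 genes shifted by a log2 value of 0.5, 90% of 50 shifted by 1 and 100% of 50 shifted by 2, and called 13 unchanged rows. The simulation drew independent normal noise with the moderated variances of these rows. It shifted far fewer rows than passed on the real arrays, so its rates need not hold for them.

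The members, the lists, the markers and the rule for named genes were chosen with earlier results of these data known. All members are described, with the values of each array for those past the threshold and for the largest difference in a role where none passed, and for each neighbouring list the 2 largest differences are given. Values by array of Hk1, Pfkm, Aldoc, Pgk1, Eno3, Slc16a1, Ldha, Pdk4, Fbp1, Slc5a1 and Fbp2 were added after they were seen. Alternative settings were quantile normalization, centring of arrays, leaving out dim rows, eBayes with trend and robust estimation, array weights, a replicate block, an adipocyte covariate, other thresholds and each array left out.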

Additional observations from a re-analysis of the deposited data

How the results depend on the processing

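Of the 4 genes that rose, Hk2, Pfkp and Slc16a3 passed under every alternative except the adipocyte covariate, which left only Slc16a3 among the members, and 0 members fell under any alternative. The count of higher members was 3 with each array left out, with the replicate block and at an adjusted p under 0.01, and 6 after leaving out dim rows, with the variance trend and robust estimation and at an adjusted p under 0.1. Over all rows, 565 higher and 132 lower became 839 and 262 without dim rows, 826 and 268 with trend and robust estimation, 246 and 24 with the replicate block, 95 and 3 with the adipocyte covariate, 176 and 7 at an adjusted p under 0.01, and 947 and 393 at one under 0.1. With 1 array left out they were 223 to 361 higher and 21 to 52 lower.

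Signs turned only among genes that had not passed. With the adipocyte covariate this held for Hk1 (-0.065), Ldhb (0.006), Pdk2 (0.008), Pdk3 (0.076), Pdk4 (-0.215), Pcx (-0.111) and Fbp2 (-0.038). With quantile normalization it held for Hk3 (0.025), Pfkfb2 (-0.013), Ldhb (0.036), Slc16a1 (-0.024) and Slc2a3 (0.009), with centring for Slc16a1 (-0.021), and with array weights for Hk3 (0.024) and Ldhb (0.003). With 1 array left out the values spanned 0 for Hk3 (-0.131 to 0.060), Pgam2 (-0.044 to 0.041), Pklr (-0.034 to 0.134), Ldhb (-0.030 to 0.017), Slc16a1 (-0.100 to 0.196), Pdk2 (-0.116 to 0.007), Pdk4 (-0.081 to 0.385), Slc2a3 (-0.148 to 0.061) and Pcx (-0.068 to 0.102). The cause was not tested. Same-numbered arrays of the genotypes correlated at 0.04, 0.07 and -0.10 in their deviations from the group means. Such values cannot show whether same-numbered samples were paired. With the replicate block Pfkl had an adjusted p of 0.064, and the other calls among the members did not change.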
